A study of Mus musculus with 2 samples.

Results

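The genes of mitochondrial protein import and of the mitochondrial carrier family were taken from the GENCODE M21 basic annotation of the mouse genome as the protein-coding genes whose symbols begin with Tomm, Timm or Slc25a. There were 73 of them among 21938 protein-coding genes, 26 import genes (10 Tomm and 16 Timm) and 47 Slc25a genes. A gene was counted as bound when the summit of a YY1 peak, the position with the most fragments, lay within 1000 bp of the start of any of its transcripts. YY1 summits were present at 22 of the 73 genes (30.1%), 9 import genes and 13 carriers, next to 18.8% of all protein-coding genes and 33.9% of those with a CpG-rich start, the type that most of these genes have. Bound were 5 of the 10 Tomm genes, namely Tomm7, Tomm20, Tomm40, Tomm70a and Tomm34, the last of which encodes a cytosolic co-chaperone. Of the small TIM chaperone genes 2 of 7 were bound (Timm9 and Timm13). Among the genes listed here for the inner membrane translocases, 2 of 2 were bound for TIM22 (Timm22 and Timm29) and 0 of 6 for TIM23. Among the carriers the bound genes included the ADP/ATP carrier gene Slc25a4, the citrate carrier gene Slc25a1 and the NAD carrier gene Slc25a51. The families are small, and no difference between these groups was tested.

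Most mitochondrial proteins are encoded in the nucleus, made in the cytosol and imported. The TOM complex of the outer membrane holds the receptors and the channel through which nearly all of them pass. Proteins with a cleavable presequence then go through the TIM23 complex into the matrix or inner membrane, while metabolite carriers are escorted across the intermembrane space by small TIM chaperones and inserted into the inner membrane by the TIM22 complex. The SLC25 proteins are themselves the main substrates of this second route, and they exchange nucleotides, phosphate, carboxylates, amino acids and cofactors between cytosol and matrix. YY1 is a zinc finger transcription factor that binds near the starts of many housekeeping genes, and mitochondrial genes are among its known targets in skeletal muscle.

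The measurement was ChIP-seq, in which DNA recovered with an antibody against YY1 is sequenced and bound sites appear as pileups of fragments. It was made in muscle stem cells (MuSCs), the Pax7-positive cells that regenerate muscle, sorted for a fluorescent reporter and mixed from several Ctrl mdx mice (Pax7 CreERT2/R26YFP; Yy1 +/+; mdx), which lack dystrophin and carry the Cre and reporter alleles but no floxed Yy1. The study describes freshly isolated cells from mdx mice, whereas the labels describe a culture protocol and the series calls the cells WT MuSC. There was 1 YY1 library and 1 background library, which the labels call input and the methods input (IgG). The background library was not analysed here. With 1 YY1 library no value below has an error between mice, and intervals cover counting error only. The deposited list holds 4681 peaks, of which 3971 lay within 1000 bp of a transcript start, with a largest p-value of 7.59e-05 and between 8 and 394 fragments at the summit. Of the marker genes of these cells, Pax7 had a summit 703 bp downstream of a start (fold enrichment 2.65, with 117 fragments over a high local background of 43.5), and Myf5 and Myod1 had none within 1000 bp, although a peak list does not measure expression.

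Bound genes made up 30.1% of the import and carrier genes (22 of 73, 95% exact binomial interval 19.9% to 42.0%) and 18.8% of all protein-coding genes. The interval is wide because the families are small, and the share over all genes lay just under its lower end. Among the import genes the share was 34.6% (9 of 26, interval 17.2% to 55.7%), and among the carriers it was 27.7% (13 of 47, interval 15.6% to 42.6%). The interval of each holds the share of the other. The Tomm genes stood at 50% (5 of 10, interval 18.7% to 81.3%) and the Timm genes at 25% (4 of 16, interval 7.27% to 52.4%), which likewise cannot be separated at these numbers. The number of bound genes depended on how strict the rule was, and 11 remained with a fold enrichment of at least 5 (15.1%, next to 11.1% of all protein-coding genes) and 13 with a window that ended 100 bp downstream of the start (17.8%, next to 14.6%). The shares were closer to those of all genes under both settings than under the rule used.

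The base composition of the starts also differed between these families and all genes. Whether it accounts for the difference in the shares bound was not tested. A start was called CpG-rich when the 501 bp around it had a GC content of at least 50% and an observed to expected CpG ratio of at least 0.6, the type of start typical of broadly expressed genes. Of the import and carrier genes 57 of 73 (78.1%) had such a start, against 47.6% of all protein-coding genes. Within genes that have one, 36.8% of the import and carrier genes were bound (21 of 57, interval 24.4% to 50.7%), next to 33.9% of all protein-coding genes. The share in the families was thus near that of other genes with CpG-rich starts, and no excess over them was detectable with 57 genes. Of the 16 genes with other starts only Slc25a22 was bound (6.25%, interval 0.158% to 30.2%), next to 5.03% of all such genes. Slc25a22 has a CpG-rich start at another transcript, so that 22 of 22 bound genes had one when any transcript start was allowed, and the shares were then 36.7% in the families and 33.6% in all genes.

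**Figure D1:**
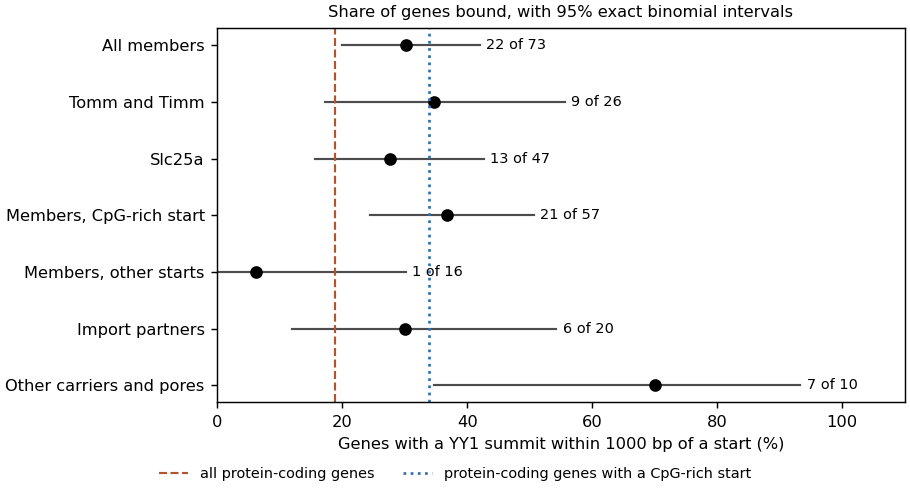
Share of genes with a YY1 summit within 1000 bp of a transcript start, in percent, with points for the share and horizontal lines for the 95% exact binomial interval. The dashed line marks all protein-coding genes (18.8%) and the dotted line those with a CpG-rich start (33.9%), which lies inside the interval of every set drawn except the genes with other starts and the list of other carriers and pores.

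The Tomm genes, listed here under the outer membrane translocase, were bound at 5 of 10. They include Tomm34, which encodes a cytosolic co-chaperone. Tomm7, which encodes a small subunit that modulates the assembly of the complex, had the summit nearest to a start among the 22 bound import and carrier genes, 2 bp upstream of the annotated first base, with a fold enrichment of 5.50. The fold enrichment is the ratio of fragments at the summit to the local background after 1 is added to both. For Tomm7 it rested on 15 fragments (95% Poisson interval 8.40 to 24.7) over a background of 1.91, in a peak of 225 bp at chr5:23844060-23844284 (GRCm38, minus strand gene, p = 2.52e-10, exact Poisson, from the peak list). A palindrome of the 8-base word GCATGCGC begins 5 bp downstream of the start of Tomm7. The word is the type of site bound by NRF1, a regulator of nuclear genes for mitochondrial proteins. It is shown because it is the only one of these peaks where such a word was found on both strands near the summit. In the 30 bases below, read in the direction of transcription, the capitals mark the overlapping words of both strands, and the next line shows, in capitals, a word CCGGAAG on the opposite strand, the type bound by ETS factors such as GABPA, another regulator of mitochondrial genes.
Tomm7, chr5:23844137-23844166, minus strand: gccccacgtgGCGCATGCGCagctcctctc
Tomm7, chr5:23844118-23844147, minus strand: cagctcctctccCTTCCGGgatccggacac

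The receptor genes differed in the position of the peak. Tomm70a, the receptor for carrier precursors and the entry to the TIM22 route, had a fold enrichment of 5.15 with its summit 310 bp downstream of the start, inside coding sequence. Tomm20, the receptor for presequences, had a summit 78 bp upstream with a fold enrichment of only 3.32, below that of all but 4.32% of the bound protein-coding genes. The low ratio at Tomm20 came with 22 fragments (interval 13.8 to 33.3), the third highest number among the bound import and carrier genes, over the highest local background of them, 5.93. Tomm34, a cytosolic co-chaperone that binds precursors before import, had a fold enrichment of 4.80 and a summit 515 bp downstream in coding sequence. The summit fell 4 bp from the centre of the core ATGGC of the YY1 motif, which is shown in capitals and whose first letters are the annotated start codon.
Tomm34, chr2:164070577-164070606, minus strand: ccggcctcccgggATGGCccccaaactctc

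Tomm40, the channel itself, had the summit farthest from a start among the 22 bound import and carrier genes, 667 bp upstream and outside the gene. Its peak spanned 666 bp at chr7:19715699-19716364 and had 15 fragments (interval 8.40 to 24.7) over a background of 2.96, a fold enrichment of 4.04 and p = 1.05e-07 (exact Poisson, from the peak list). No peak met the rule at Tomm22, the central receptor, at the small subunit genes Tomm5 and Tomm6, or at Tomm20l and Tomm40l, paralogs of Tomm20 and Tomm40. Tomm40 was thus the last of these genes inside the limit of 1000 bp. The first outside it was Timm10b, whose nearest summit lay 6458 bp from a start, at Trim3. That peak of 367 bp had 12 fragments over a background of 1.54, a fold enrichment of 5.13 and p = 1.03e-08 (exact Poisson, from the peak list). No import or carrier gene thus lay near the limit itself.

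The small TIM chaperones, which carry hydrophobic precursors across the intermembrane space, were bound at 2 of 7 genes. Timm9, which forms a hexamer with Timm10, had the highest fold enrichment of the bound import and carrier genes, 8.40, above 95.9% of the bound protein-coding genes. It rested on 24 fragments (interval 15.4 to 35.7) over a background of 1.98 in a peak of 648 bp at chr12:71136639-71137286 (p = 2.39e-19, exact Poisson, from the peak list). The summit lay 413 bp upstream of Timm9 and outside it, and 249 bp inside 2700049A03Rik, a gene transcribed in the opposite direction from a start 164 bp away. A GCATGCGC word, the second of its kind at these peaks, began 64 bp from the summit in an exon of that neighbour and is shown in capitals on the strand of Timm9.
Timm9, chr12:71137150-71137179, minus strand: agcgtcagcacGCATGCGCgcaaagatcca

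Timm13, which pairs with Timm8 proteins, had a fold enrichment of 4.34 from 10 fragments (interval 4.80 to 18.4), the lowest number in the families and shared with Slc25a39. Its summit lay 343 bp downstream in an intron. Timm10, Timm10b, Timm8a1, Timm8a2 and Timm8b had no summit within 1000 bp, so that Timm9 and Timm13 were each bound without a bound gene among their listed partners.

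Both genes listed here under the TIM22 translocase were bound, Timm29 near the top of the range of fold enrichment and Timm22 at its bottom. Agk, a further component of the complex, was counted in a separate list. Timm29, a metazoan subunit that links TIM22 to the TOM complex, had a fold enrichment of 7.57 from 29 fragments (interval 19.4 to 41.6), the highest number in the families, over a background of 2.96. Its peak of 674 bp at chr9:21592686-21593359 had its summit 156 bp downstream in the UTR (p = 3.07e-20, exact Poisson, from the peak list). The same summit lay 50 bp upstream of Yipf2, whose start lies 106 bp away on the opposite strand, so that the transcripts overlap at their starts. Timm22, the channel, had the lowest fold enrichment of the 22, 2.83, and only 0.413% of the bound protein-coding genes had a lower ratio. It had 13 fragments (interval 6.92 to 22.2) over a background of 3.95 at chr11:76406835-76407287, with p = 6.72e-05 and q = 0.0763 (exact Poisson, from the peak list), and it was the only bound gene of the families with q above 0.05.

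The TIM23 translocase was bound at 0 of its 6 listed genes, which allows a share of up to 50% when 0 is bounded by 3 counts. Its genes Timm23, Timm17a and Timm17b encode the channel, Timm50 the presequence receptor, Timm44 the tether of the import motor and Timm21 a subunit that couples it to the TOM complex. Their nearest summits lay between 22.7 kb (Timm44) and 362 kb (Timm21) from a transcript start. The exact intervals of the listed TIM22 genes (2 of 2, 15.8% to 100%) and TIM23 genes (0 of 6, 0% to 45.9%) overlap. The latter is a different bound from that of 3 counts. With so few genes the difference between these lists, which do not hold every component of the complexes, was not tested. Timmdc1, an assembly factor of respiratory complex I that shares the symbol but not the import role, was not bound either, with the summit nearest to its start 40.1 kb away at Tmem39a.

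**Figure D2:**
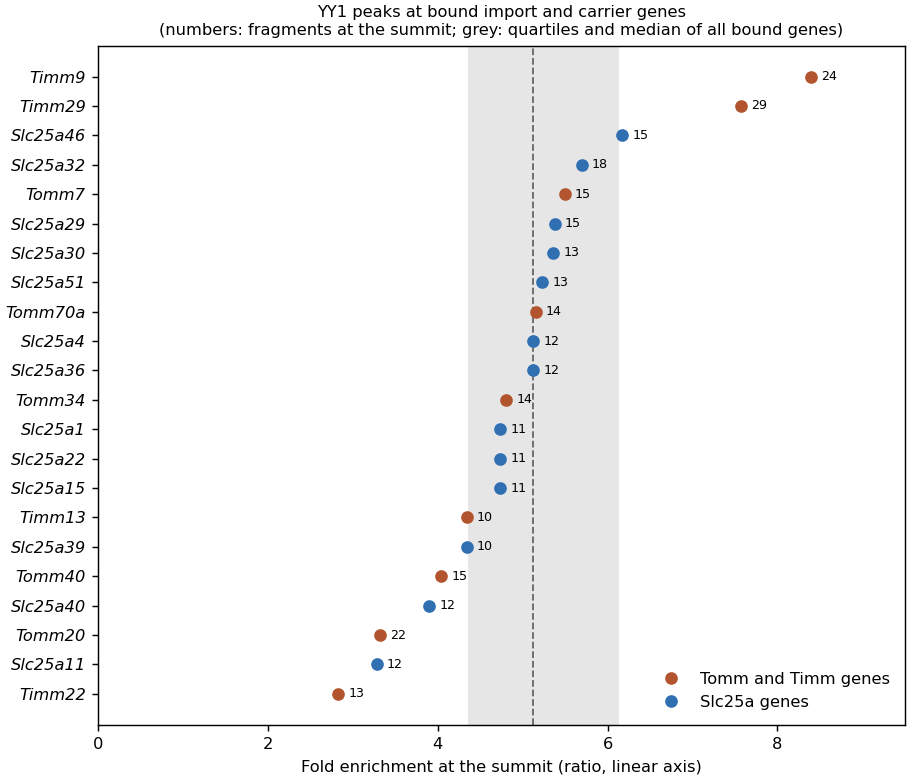
Fold enrichment at the summit of each bound import and carrier gene, a ratio without unit, with the genes sorted from highest to lowest. The values run from 8.40 at Timm9 to 2.83 at Timm22, and most lie close to the median of all bound protein-coding genes, 5.13.

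Among the carriers of adenine nucleotides and phosphate 1 of 8 genes was bound. That gene was Slc25a4, the ADP/ATP carrier that predominates in skeletal muscle and heart, with a fold enrichment of 5.13 from 12 fragments (interval 6.20 to 20.96) and a summit 385 bp downstream in coding sequence. Its paralogs Slc25a5, a broadly expressed form on the X chromosome, and Slc25a31, a form known from testis, were not bound. Neither were Slc25a3, the phosphate carrier, nor the ATP-Mg/phosphate carriers Slc25a23, Slc25a24, Slc25a25 and Slc25a41.

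The di- and tricarboxylate carriers were bound at 2 of 4 genes. Slc25a1, which exports citrate for lipid synthesis, had a fold enrichment of 4.73 and a summit 16 bp downstream in the UTR. Slc25a11, the oxoglutarate/malate carrier of the malate-aspartate shuttle, had a fold enrichment of 3.28 and q = 0.025, with its summit 114 bp downstream. The dicarboxylate carrier gene Slc25a10 and the oxodicarboxylate carrier gene Slc25a21 were not bound. For Slc25a10 the nearest summit lay 7221 bp from its start, at the start of Mrpl12, which encodes a mitochondrial ribosomal protein and had a fold enrichment of 9.26. At Slc25a11 a core ATGGC again lay at the start codon, centred 84 bp from the summit, and is shown in capitals for comparison with Tomm34.
Slc25a11, chr11:70646846-70646875, minus strand: ccatcaaggggcgATGGCggcgacggcgag

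Of the 9 amino acid carriers 3 were bound. Slc25a29, a carrier of basic amino acids, had a fold enrichment of 5.38 with its summit 287 bp upstream. Its gene ends 5.73 kb from the end of Yy1 itself, which is transcribed towards it and had its own peak 211 bp upstream of its start, with a fold enrichment of 3.64. Slc25a15, the ornithine carrier of the urea cycle, and Slc25a22, a glutamate carrier, had the same fold enrichment, 4.73, from 11 fragments each (interval 5.49 to 19.7). Both had a local background of 1.54, which is the lowest value and also the lower quartile among all bound protein-coding genes. Genes at this value differ in fold enrichment only by their fragment number. The summit lay 67 bp downstream at Slc25a15 and 118 bp upstream of an internal start at Slc25a22, inside an intron of its longer transcripts. Not bound were Slc25a12 and Slc25a13, the aspartate/glutamate carriers, Slc25a18, the other glutamate carrier, Slc25a2, the other ornithine carrier, Slc25a38, the glycine carrier, and Slc25a44, the carrier of branched-chain amino acids.

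The carriers of cofactors, nucleotides and acylcarnitine were bound at 5 of 12 genes, the highest count among the lists of carriers, of which this is the longest. Slc25a32, which transports folate and FAD, had a fold enrichment of 5.70 from 18 fragments (interval 10.7 to 28.4) over a background of 2.34, in a peak of 261 bp at chr15:39112702-39112962 (p = 9.02e-12, exact Poisson, from the peak list). Slc25a51, the NAD carrier, had 5.23 with a summit 63 bp downstream, and Slc25a36, a carrier of pyrimidine nucleotides, had 5.13 with a summit 323 bp downstream. The paralogs Slc25a39 and Slc25a40, which import glutathione, were both bound, at fold enrichments of 4.34 and 3.90 and with summits 6 bp downstream and 67 bp upstream. Among the others, no summit met the rule at Slc25a16 and Slc25a42 (coenzyme A), Slc25a17 (a peroxisomal carrier), Slc25a20 (acylcarnitine), Slc25a26 (S-adenosylmethionine) and Slc25a33 (pyrimidine nucleotides).

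In the remaining carriers 2 genes were bound. Slc25a30, an uncoupling-protein-like carrier, had a fold enrichment of 5.36 and a summit 131 bp downstream in an intron, while Slc25a14 and Slc25a27 of the same kind had none. Slc25a46, an outer membrane protein of the family that is linked to mitochondrial shape, had 6.17, the highest of the carriers, from 15 fragments (interval 8.40 to 24.7) over a background of 1.59, in a peak of 380 bp (p = 1.84e-11, exact Poisson, from the peak list) with its summit 273 bp downstream in coding sequence. The iron carriers (mitoferrins) Slc25a28 and Slc25a37 were not bound, and neither were Slc25a34, Slc25a35, Slc25a43, Slc25a45, Slc25a47, Slc25a48, Slc25a53 and Slc25a54, to which no role was assigned here. The annotated span of Slc25a47 begins inside the Slc25a29 peak, but its basic transcripts start 15.0 kb from that summit.

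As a set the bound genes were of ordinary strength. The median fold enrichment of the 22 was 4.96 (quartiles 4.34 and 5.37), against 5.13 (quartiles 4.37 and 6.12) for the 4119 bound protein-coding genes. The import genes had a median of 4.80 and a wider range, 2.83 to 8.40, and the carriers had a median of 5.13 within 3.28 to 6.17. The number of fragments had a median of 13 (10 to 29), next to 15 for all bound genes, and the peak width a median of 375 bp, next to 368 bp. Because the counts are small, the fragment intervals of neighbours in the order of fold enrichment overlap. The interval of the 24 fragments at Timm9 overlaps that of the 15 at Slc25a46. The 29 fragments at Timm29 (interval 19.4 to 41.6) and the 14 at Tomm70a (interval 7.65 to 23.5) also have intervals that meet. Those of Timm29 and of the 10 fragments at Timm13 and at Slc25a39 (interval 4.80 to 18.4) do not. Overlap of intervals is not a test, and these intervals leave out the local background.

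The summits lay slightly more often downstream of the start than upstream. They were downstream at 14 of 22 genes (63.6%, interval 40.7% to 82.8%), against 48.7% of all bound protein-coding genes, a value inside that interval. Of the 22 summits 7 fell in a UTR, 4 in coding sequence, 4 in an intron and 7 outside the gene. The median distance from the start was 124.5 bp (2 to 667 bp), next to 107 bp for all bound genes. It was 273 bp with a fold enrichment of at least 5, 219 bp from the gene-level start and 67 bp with the window that ended 100 bp downstream. Of the 22 summits 9 (40.9%) lay within 100 bp, next to 47.9%.

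**Figure D3:**
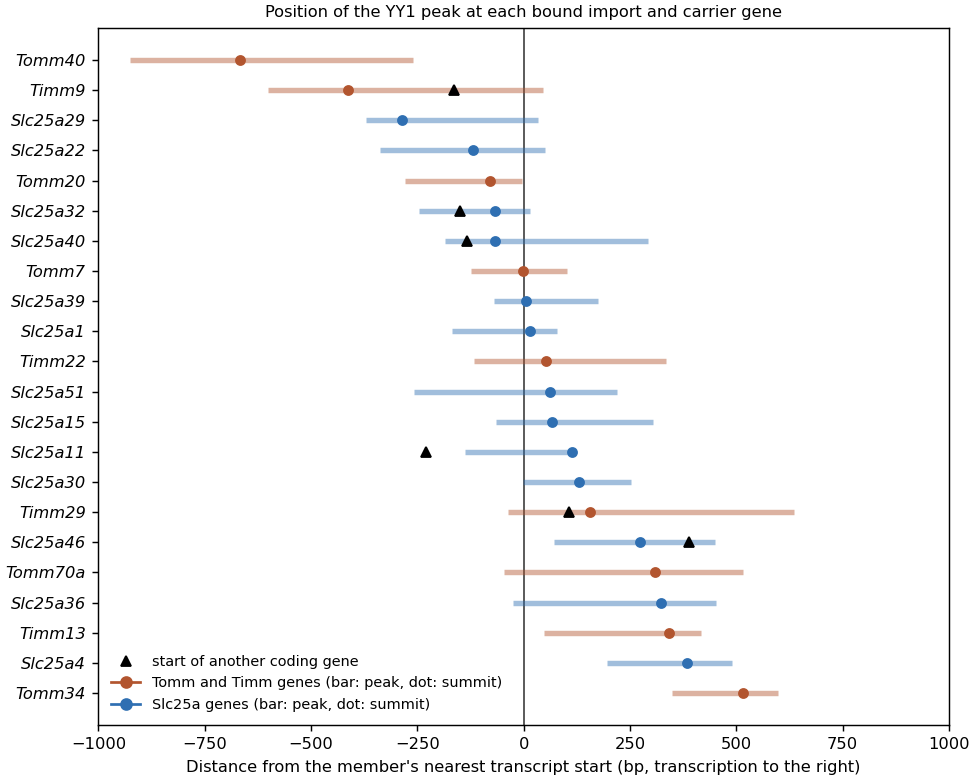
Position of the YY1 peak (bar) and its summit (dot) at each bound import and carrier gene, in bp from the nearest transcript start of the gene, with transcription to the right and triangles at the start of another protein-coding gene. The summits run from 667 bp upstream at Tomm40 to 515 bp downstream at Tomm34, with 14 of 22 to the right of the start.

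Several of these peaks also lie at the start of another gene, and the peak list does not say to which of them the binding belongs. At 9 of 22 genes (40.9%) another annotated gene started within 1000 bp of the same summit, and at 6 of 22 (27.3%) a protein-coding gene did. The shares for all bound protein-coding genes were 39.7% and 25.7%. The protein-coding partners were 2700049A03Rik at Timm9, Yipf2 at Timm29, B930094E09Rik at Slc25a46, Dcaf13 at Slc25a32, Dbf4 at Slc25a40 and Rnf167 at Slc25a11. At Timm9, Timm29 and Slc25a46, the genes with the highest fold enrichment in the families, the partner's start was nearer to the summit than that of the import or carrier gene.

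At Slc25a32 and Slc25a40 the summit lay between 2 divergent starts, and the whole interval between them is printed because it contains the summit and no exon. Dbf4, which encodes the regulatory subunit of a kinase that fires replication origins, starts 134 bp from Slc25a40, and the summit lay 67 bp upstream of each. Dcaf13, which encodes a factor of ribosome biogenesis, starts 149 bp from Slc25a32, and the summit lay 82 bp upstream of it and 67 bp upstream of Slc25a32. Capitals mark the 5 bases centred on the summit. The first interval is read from Dbf4 towards Slc25a40, and the second from Dcaf13 towards Slc25a32.
Slc25a40 and Dbf4, chr5:8422717-8422849, plus strand: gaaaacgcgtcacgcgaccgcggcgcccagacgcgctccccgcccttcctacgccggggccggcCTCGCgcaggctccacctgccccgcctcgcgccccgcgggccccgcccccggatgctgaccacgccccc
Slc25a32 and Dcaf13, chr15:39112717-39112864, minus strand: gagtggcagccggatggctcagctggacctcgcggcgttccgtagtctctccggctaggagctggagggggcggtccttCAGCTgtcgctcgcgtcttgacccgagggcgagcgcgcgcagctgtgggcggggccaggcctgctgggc

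The motif AANATGGC, the form of the YY1 site named by the study (N is any base), was searched on both strands of the reference sequence within 100 bp of each summit. It was found at 0 of the 22 peaks, which allows a share of up to 13.6% and covers the 7.35% found at all 3971 promoter peaks, so that no difference was detectable with 22 peaks. Its core ATGGC, which lies inside the longer word, was present at 6 of 22 (27.3%, interval 10.7% to 50.2%), namely Slc25a32, Tomm7, Tomm70a, Slc25a36, Tomm34 and Slc25a11, and at 31.0% of all promoter peaks. The NRF1-type word GCATGCGC was present at Timm9 and Tomm7 (9.09%, interval 1.12% to 29.2%, next to 5.26%). The ETS-type word CCGGAAG was present at Tomm7, Tomm34, Timm13 and Tomm20 (18.2%, interval 5.19% to 40.3%, next to 13.2%). A match is only a run of letters in the reference, and the factors that bind these words were not measured.

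Around the annotated starts, within 250 bp of the start of the gene, CCGGAAG was found on either strand at 10 of 22 bound genes (45.5%, interval 24.4% to 67.8%) and at 14 of 51 unbound ones (27.5%, interval 15.9% to 41.7%). The shares over bound and over all protein-coding genes were 25.3% and 14.5%. AANATGGC was found at 0 of 22 bound genes, which allows a share of up to 13.6% by 3 counts and of up to 15.4% by the exact interval, and at 8 of 51 unbound ones (15.7%, interval 7.02% to 28.6%), next to 10.3% of all protein-coding genes and 14.9% of the bound ones. The intervals of the bound and unbound import and carrier genes overlap. The unbound genes with the word included Tomm40l, Timm50, Timm44, Slc25a3, Slc25a14, Slc25a26 and Slc25a44. The 2 TIM23 genes among them are shown because the full word there runs into the start codon, with the ATG inside the capitals being the annotated first codon. In Timm50 the word is centred 41 bp and in Timm44 27 bp downstream of the start, and the nearest summits of the list lay 26.7 kb and 22.7 kb from these starts.
Timm50, chr7:28312017-28312046, minus strand: ggcgtcagcgcAAGATGGCggcctcggcgg
Timm44, chr8:4275872-4275901, minus strand: cgggctcttccAACATGGCggcggcagctc

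For the 51 unbound genes, distances were measured from the transcript starts and not from the gene bodies. The nearest summit lay at a median distance of 52.7 kb from a start, within 10000 bp at 3 genes (Timm10b, Tomm6 and Slc25a10) and more than 100000 bp away at 17. The largest distance was 7974 kb at Slc25a14. All 6 genes on the X chromosome (Timm17b, Timm8a1, Slc25a5, Slc25a14, Slc25a43 and Slc25a53) were unbound, where only 2.32% of the 948 protein-coding genes of that chromosome were bound. On the autosomes 22 of 67 genes were bound (32.8%, interval 21.8% to 45.4%), next to 19.7% of all autosomal protein-coding genes.

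**Figure D4:**
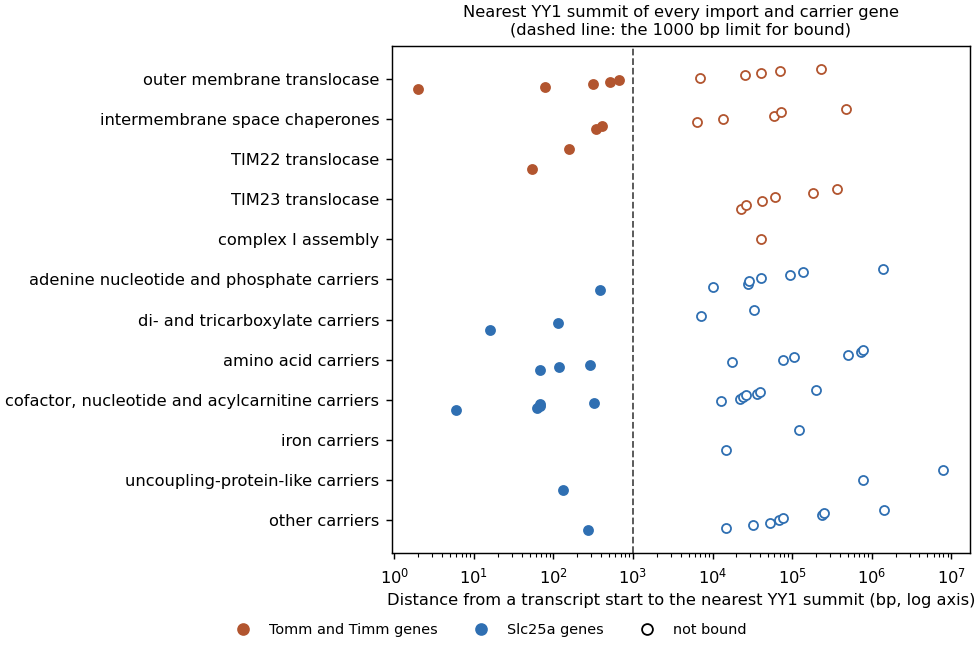
Distance in bp from a transcript start to the nearest YY1 summit for every import and carrier gene, on a log axis, grouped by role, with filled points for bound and open points for unbound genes. The dashed line is the limit of 1000 bp, and the gap around it runs from 667 bp at Tomm40 to 6458 bp at Timm10b.

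Genes that work with these families but have other symbols were counted from a separate list. Of 20 import partners 6 were bound (30%, interval 11.9% to 54.3%), an interval that holds both the 18.8% of all protein-coding genes and the 33.9% of those with a CpG-rich start. They were led by Agk, a further component of the TIM22 complex, with a fold enrichment of 6.05 and a summit 361 bp downstream, Hspa9, the Hsp70 of the import motor, with 5.91 and a summit 192 bp upstream, and Oxa1l, the insertase of the inner membrane, with 4.34 and a summit 360 bp downstream. Chchd4 and Gfer, which form the disulfide relay that traps small TIM proteins in the intermembrane space, and the motor cofactor gene Grpel2 were also bound. The other listed genes of the import motor and of TIM23, Grpel1, Dnajc19, Dnajc15, Pam16 and Romo1, were not. The sorting and assembly genes Samm50, Mtx1, Mtx2 and Mtx3 and the presequence protease genes Pmpca, Pmpcb, Mipep, Immp1l and Immp2l had no summit within 1000 bp.

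Of 10 genes for other carriers and pores 7 were bound (70%, interval 34.8% to 93.3%), next to 18.8% of all protein-coding genes and 33.9% of those with a CpG-rich start, the latter just under the lower end of the interval. The list has only 10 genes and the difference was not tested. Vdac3 had the highest fold enrichment of all genes listed here, 10.4, from 30 fragments over a background of 1.98, with its summit 90 bp upstream. Vdac2 followed with 7.06 and a summit 78 bp downstream, and Mtch1, an outer membrane relative of the SLC25 family, with 5.52 and a summit 291 bp upstream. The third porin gene Vdac1, Mtch2 and both genes of the pyruvate carrier, Mpc1 and Mpc2, made up the other bound genes. The uncoupling protein genes Ucp1, Ucp2 and Ucp3 were not bound.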

How the data were processed

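YY1 ChIP-seq peaks from 1 library of pooled MuSCs were analysed. Per the labels and the methods, reads were trimmed, filtered and aligned by the authors to mm10 (GRCm38) with Bowtie2, duplicates were removed and MACS2 called peaks against the background library. Versions are not given in the sources used here. The deposited fold enrichment is a ratio to the local background, the p-value and q-value are given as −log10, and the score column was not used. These p-values describe 1 pair of libraries and not variation between mice, and deeper sequencing would let weaker sites pass.

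Summits were placed against the transcript starts of the GENCODE M21 basic annotation, excluding the mitochondrial genome, and the strongest peak per gene was used. Fragment numbers and local backgrounds were derived from each peak's fold enrichment and p-value, and whole fragments were found for 4681 of 4681 peaks (tolerance 0.001 in −log10 p), with a median of 14. Sequences were read from GRCm38. Shares have 95% exact binomial (Clopper-Pearson) intervals, a count of 0 was bounded by 3 counts, and fragments have exact Poisson intervals. With 1 library and 1 condition no test between groups was run. All members but 1, which is counted but not reported by name here, were named, by role where a role was assigned. Full values were given for the 5 highest fold enrichments, the farthest bound summit and the nearest unbound one. Bound genes with AANATGGC were also to have them, but there were none. The 3 highest pathway genes per list were given with fold enrichment and summit position. Other values and other genes, such as the weakest peak, were added after they were seen. The members, lists and alternatives were chosen with earlier results of these data known. Placement, motif search and fragment recovery were tested on simulated data. The alternatives were limits on q and fold enrichment, other windows, starts and assignments and other motif forms. The autosomes alone, motif mismatches and the CpG-rich background were added after seeing the data. Python 3.11.15, numpy 2.4.6, pandas 2.3.3, scipy 1.17.1 and matplotlib 3.10.9 were used.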

Additional observations from a re-analysis of the deposited data

How the results depend on the processing

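Of 86 recomputed values, 76 stayed within 1.5 times the count, or for medians and shares within the 95% interval of the value in the report, and 10 did not. The median summit distance, 124.5 bp, stayed within its 95% order-statistic interval (67 to 323 bp) but moved by more than 1.5 times under 3 settings, to 273 bp (at least 5-fold), 219 bp (gene-level start) and 67 bp (window ending 100 bp downstream). When only peaks enriched at least 5-fold were kept, the bound genes fell to 11 (4 import genes and 7 carriers), those sharing their peak with another gene to 5 and the bound pathway genes to 6, next to 11.1% of all protein-coding genes and 15.1% of the import and carrier genes. With a window from 1000 bp upstream to 100 bp downstream, 13 were bound (5 import genes and 8 carriers), 17.8% next to 14.6% of all protein-coding genes. The first setting removes weaker peaks and the second removes summits farther inside the gene. The share fell from 30.1% to 15.1% and 17.8% in the families, and from 18.8% to 11.1% and 14.6% in all genes. Why it fell further in the families was not tested. The motif share at the bound genes was 27.3% for the core ATGGC and 40.9% for AANATGGC with at most 1 mismatch, the latter chosen after seeing the data and next to 27.3% of all promoter peaks. It stayed at 0% under the other motif settings. Other thresholds, windows, starts and assignments gave 19 to 22 bound genes. Timm22 was lost at q below 0.05 and Slc25a11 also at q below 0.01, Tomm34 and Tomm40 within 500 bp, Slc25a22 with the gene-level start, which added Slc25a47, and Timm9, Timm29 and Slc25a46 when each summit went to the nearest gene only. No paired analysis was possible because there was 1 YY1 library, and for the same reason no replicate could be left out. No peak of the list had fewer than 8 fragments at its summit, so weaker sites were not detectable at this depth.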
